A study of Homo sapiens with 16 samples.

Results

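The genes described here are 32 enzymes and regulators of cholesterol and fatty acid synthesis, most of them known targets of the sterol regulatory element-binding proteins (SREBPs). They were chosen by name from the targets counted in each library. All 32 were found among 20802 gene targets, 31 of them under their current symbol and SC5D under an older one, and all 32 were among the 12704 genes with enough reads to be tested. They comprise 7 genes of the mevalonate arm, 11 genes that turn farnesyl diphosphate into cholesterol, GGPS1, 5 regulators and sterol carriers, 7 fatty acid genes and LPIN1. The mevalonate and sterol arms together are called the sterol branch (18 genes), and the 7 fatty acid genes the fatty acid branch.

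Expression was counted in 16 libraries of HEK293, a human embryonic kidney cell line grown in Free-style medium, in a study of how the geometry between Janus kinases on interferon receptors bears on gene expression. The cells carried wild-type receptors or receptors labelled optimized, and those of each genotype were left untreated or given a ligand at 100 nM: IFNw (omega, a type I interferon), IFNL3 (interferon lambda 3, a type III interferon) or H11, which the labels call a high-affinity form of IFNL3. The labels list 15 min for the treatment and 24 hr as the time point, without relating them. Each of the 8 groups had 2 libraries (n = 2 throughout). They are called biological replicates with no word on separate cultures, so the p-values measure only the spread between these libraries, which may be technical. The sources used here do not say how the optimized receptors were built or expressed, or whether the cells were a clone. No mock-treated group is among these libraries, so handling and ligand cannot be told apart in a comparison with untreated cells.

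Cells build cholesterol from acetyl-CoA through mevalonate, isoprenoid diphosphates, squalene and lanosterol, and build fatty acids from the same acetyl-CoA through malonyl-CoA. SREBP precursors sit in the endoplasmic reticulum bound to SCAP. When sterols are scarce they move to the Golgi and are cut, and the released fragments switch on genes of both pathways. When sterols are plentiful, INSIG proteins hold the complex back. SREBF2 is best known for driving sterol genes and SREBF1 for driving fatty acid genes. Interferon is known, mainly from macrophages, to lower sterol synthesis, in part through an oxysterol made by CH25H.

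Library totals lay between 5331203 and 9822088 reads, and the smallest was replicate 2 of untreated optimized cells. Levels are given in CPM, the read count relative to the library total, which is first multiplied by its TMM scaling factor. That smallest library stood apart, with a Pearson correlation across genes of 0.969 to its replicate, against 0.986 to 0.988 for the other 7 pairs. Counts of calls that use it are given with and without it, with the genes whose calls changed. ISG15, an interferon-induced gene used as a treatment check, lay between 12.96 and 19.2 CPM in the 4 untreated libraries and at 521 CPM or more in all 12 treated ones. Its level was 7266 to 7857 CPM with IFNw, 6759 and 7526 CPM with H11 in optimized cells, 4375 and 4370 CPM with IFNL3 in optimized cells, and 521 to 628 CPM with H11 or IFNL3 in wild-type cells. The kidney developmental genes LHX1 and PAX2 were read in every library (lowest 5.86 and 0.92 CPM). Of 6 markers of blood cells, fibroblasts and hepatocytes, COL1A1 reached 20.6 CPM and the other 5 stayed at 0.54 CPM or less. The libraries also differed in how levels depended on transcript length. The Spearman correlation across genes between a gene's log CPM relative to its mean over all libraries and its log transcript length was −0.40 to −0.43 in the 6 libraries of IFNw in both genotypes and H11 in optimized cells. It was 0.37 to 0.41 in the 4 wild-type libraries with H11 or IFNL3, and 0.04 to 0.16 in the other 6. The 50 genes with the most reads took 17.7% to 18.5% of the reads in those 4 wild-type libraries and 23.7% to 28.7% in the other 12. The groups that stand apart in the length trend are the groups that stand apart below, so each result was also computed with an offset that removes the trend, called the length offset.

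The 250 bases before the transcription start were examined for letters that SREBP-responsive promoters are known for. These were TCACNCCAC (a sterol response element), CCAAT (bound by NF-Y) and GGGCGG (bound by Sp1), on both strands, with overlaps between motifs allowed. Genes were scanned whether or not their levels changed, and a link between motifs and levels was not tested. RefSeq starts on GRCh38.p14 were listed for 28 of the 32 genes, with 41 starts in all. CCAAT was present at 25 of the 41 starts (61.0%), against 32.01% of 35116 starts in the table, which includes non-coding genes. In the sterol branch it was present at 15 of 20 starts, and in the fatty acid branch at 5 of 10. GGGCGG was present at 35 of 41 starts (85.4%), against 42.6%. TCACNCCAC was present at 1 of 41 (2.44%), against 0.883%, and that start belonged to SREBF2. A match is a description of the sequence, and the absence of one says only that these letters are not in this window. The sequences below belong to 2 regulators, SREBF2 (chr22:41832855-41833104) and INSIG1 (chr7:155297628-155297877), and to 2 enzymes with several CCAAT motifs, MSMO1 (chr4:165327419-165327668, 4 motifs) and MVK (chr12:109573544-109573793, 5 motifs). All 4 are on the plus strand, written 5′ to 3′ and ending at the base before the start, with TCACNCCAC and CCAAT on either strand in capitals.
SREBF2: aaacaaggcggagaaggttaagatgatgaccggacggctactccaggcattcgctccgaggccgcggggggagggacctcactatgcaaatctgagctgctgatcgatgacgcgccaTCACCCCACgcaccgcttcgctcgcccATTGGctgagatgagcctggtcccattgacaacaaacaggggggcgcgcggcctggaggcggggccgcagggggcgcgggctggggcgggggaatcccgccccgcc
INSIG1: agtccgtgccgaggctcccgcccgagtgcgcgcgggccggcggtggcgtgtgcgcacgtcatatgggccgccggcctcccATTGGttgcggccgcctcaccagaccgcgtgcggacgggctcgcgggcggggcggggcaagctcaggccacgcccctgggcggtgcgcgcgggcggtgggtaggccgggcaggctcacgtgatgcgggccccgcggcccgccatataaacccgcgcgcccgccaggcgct
MSMO1: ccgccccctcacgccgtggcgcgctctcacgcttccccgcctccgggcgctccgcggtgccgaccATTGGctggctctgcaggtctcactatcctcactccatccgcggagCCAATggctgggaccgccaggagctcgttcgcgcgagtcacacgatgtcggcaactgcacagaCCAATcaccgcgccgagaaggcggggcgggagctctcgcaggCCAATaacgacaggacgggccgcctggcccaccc
MVK: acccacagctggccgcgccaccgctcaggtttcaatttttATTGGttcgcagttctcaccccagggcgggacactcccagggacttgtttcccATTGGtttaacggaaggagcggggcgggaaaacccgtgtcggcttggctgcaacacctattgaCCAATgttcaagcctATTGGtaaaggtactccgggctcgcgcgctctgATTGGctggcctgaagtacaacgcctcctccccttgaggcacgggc

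**Figure D1:**
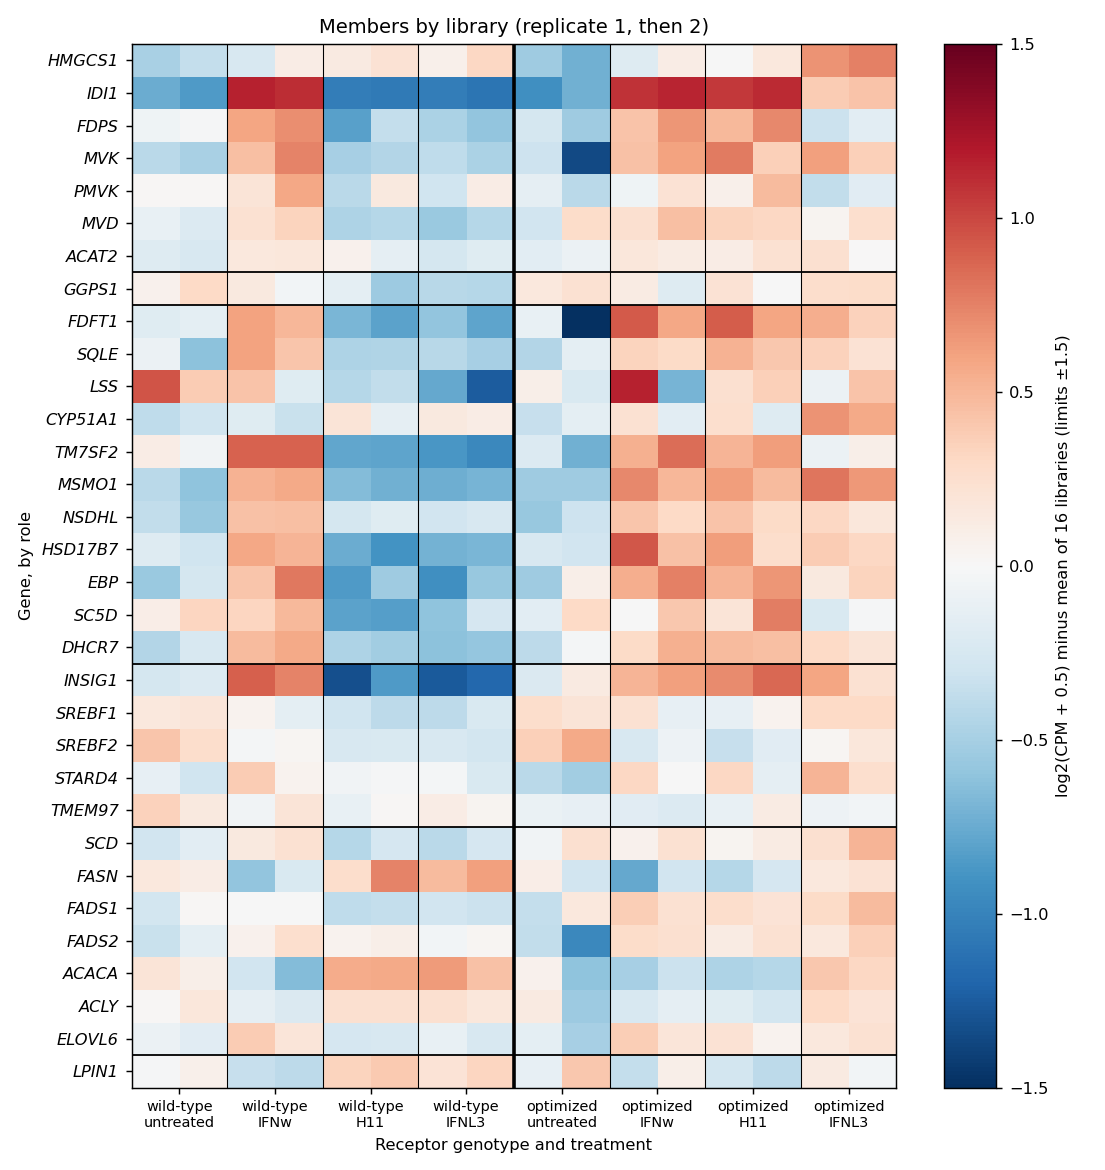
Level of each of the 32 genes (rows, by role) in each of the 16 libraries (columns, replicate 1 then 2 within each genotype and treatment), as log2(CPM + 0.5) minus the gene's mean over the libraries. Red is above and blue below that mean, with colours limited at ±1.5. Most rows of the mevalonate and sterol arms are red with IFNw in cells of either genotype and H11 in optimized cells, and blue in wild-type cells with H11 or IFNL3.

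In the mevalonate arm the widest changes were in IDI1, the isomerase of isopentenyl diphosphate. IDI1 in wild-type cells was at 116 and 107 CPM in untreated cells, 434 and 421 CPM with IFNw, 94.96 and 92.7 CPM with H11, and 94.6 and 90.6 CPM with IFNL3. With optimized receptors IDI1 was at 103 and 118 CPM in untreated cells, 413 and 431 CPM with IFNw, 407 and 422 CPM with H11, and 254 and 262 CPM with IFNL3. The 6 libraries of IFNw in both genotypes and of H11 in optimized cells (407 CPM or more) lay above all others, the optimized libraries with IFNL3 lay between them and the untreated ones, and the 4 wild-type libraries with H11 or IFNL3 lay below all 4 untreated libraries. IDI1 rose 3.83-fold with IFNw in wild-type cells, a log2 fold change of 1.94 (SE 0.11, adjusted p = 9.59e-10). In optimized cells its log2 fold change was 1.94 (SE 0.11, adjusted p = 1.08e-09) with IFNw, 1.91 (SE 0.11, adjusted p = 1.36e-09) with H11 and 1.22 (SE 0.11, adjusted p = 5.73e-07) with IFNL3. In wild-type cells H11 gave −0.25 (adjusted p = 0.0815) and IFNL3 −0.27 (adjusted p = 0.0617) on the log2 scale, neither past the threshold of 0.05. In these bulk libraries a change per cell and a change in the share of cells cannot be told apart.

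MVK, mevalonate kinase, rose in the same groups and in optimized cells with IFNL3. MVK in wild-type cells was at 16.4 and 15.5 CPM in untreated cells, 30.1 and 36.9 CPM with IFNw, 15.3 and 15.97 CPM with H11, and 16.6 and 15.6 CPM with IFNL3. With optimized receptors MVK was at 17.5 and 8.23 CPM in untreated cells, 29.7 and 33.4 CPM with IFNw, 37.97 and 28.01 CPM with H11, and 33.6 and 28.01 CPM with IFNL3. The 8 libraries of IFNw in both genotypes and of H11 and IFNL3 in optimized cells lay at 28.01 CPM or more, and the other 8 at 17.5 CPM or less. Its log2 fold change was 1.07 (SE 0.24, adjusted p = 0.00241) with IFNw in wild-type cells, and in optimized cells 1.24 (SE 0.25, adjusted p = 0.000905) with IFNw, 1.31 (SE 0.25, adjusted p = 0.000598) with H11 and 1.21 (SE 0.25, adjusted p = 0.00368) with IFNL3. Untreated optimized cells had an outlying replicate 2 for MVK (8.23 against 17.5 CPM). Without that library the 3 optimized log2 fold changes were 0.85, 0.91 and 0.82, all past the threshold.

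HMGCS1, which makes HMG-CoA, was higher in every treated library. HMGCS1 in wild-type cells was at 102 and 111 CPM in untreated cells, 121 and 155 CPM with IFNw, 157 and 166 CPM with H11, and 151 and 177 CPM with IFNL3. With optimized receptors HMGCS1 was at 98.4 and 86.3 CPM in untreated cells, 124 and 154 CPM with IFNw, 142 and 159 CPM with H11, and 228 and 242 CPM with IFNL3. All 4 untreated libraries (111 CPM or less) lay below all 12 treated ones, and the 2 optimized libraries with IFNL3 lay above all others. The log2 fold change was 0.59 (SE 0.15, adjusted p = 0.00384) with H11 and 0.62 (SE 0.15, adjusted p = 0.00293) with IFNL3 in wild-type cells, where IFNw gave 0.37 (adjusted p = 0.0651). In optimized cells it was 1.34 (SE 0.15, adjusted p = 6.68e-06) with IFNL3, 0.70 (SE 0.15, adjusted p = 0.00143) with H11 and 0.59 (SE 0.15, adjusted p = 0.00504) with IFNw. The last of these did not pass when the compared groups were fitted alone or without replicate 2 of IFNw, with log2 fold changes of 0.46 to 0.78 over the 4 fits that each left out 1 library.

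FDPS, which makes farnesyl diphosphate, moved in both directions. FDPS in wild-type cells was at 110.3 and 114 CPM in untreated cells, 175 and 188 CPM with IFNw, 65.8 and 90.1 CPM with H11, and 83.2 and 76.8 CPM with IFNL3. With optimized receptors FDPS was at 96.6 and 79.7 CPM in untreated cells, 156 and 184 CPM with IFNw, 162 and 190.5 CPM with H11, and 92.7 and 104 CPM with IFNL3. The 6 libraries of IFNw in both genotypes and of H11 in optimized cells (156 CPM or more) lay above the other 10 (114 CPM or less), and the wild-type H11 and IFNL3 libraries lay below the untreated wild-type ones. FDPS rose with IFNw in wild-type cells (log2 fold change 0.70, SE 0.15, adjusted p = 0.00222) and with IFNw (0.94, SE 0.16, adjusted p = 0.00017) and H11 (1.00, SE 0.16, adjusted p = 0.000107) in optimized cells. It fell in wild-type cells with H11 (−0.53, SE 0.15, adjusted p = 0.0125) and IFNL3 (−0.49, SE 0.15, adjusted p = 0.0185). Both falls lost the call with the length offset (log2 fold changes −0.31 and −0.27). The fall with H11 was also lost without replicate 1 of H11 or replicate 2 of untreated cells (−0.77 to −0.32), and the fall with IFNL3 without any 1 of the 4 libraries (−0.54 to −0.43). Of the other 3 genes of the arm, PMVK, phosphomevalonate kinase, passed in no comparison without the length offset, at 24.8 to 49.5 CPM. MVD, the decarboxylase (32.6 to 66.2 CPM), and ACAT2, which makes acetoacetyl-CoA (106.1 to 151 CPM), each passed against untreated cells with IFNw in wild-type cells, at log2 fold changes of 0.45 (SE 0.16, adjusted p = 0.0452) and 0.39 (SE 0.12, adjusted p = 0.0216). Neither passed with the length offset (0.27 and 0.35), and both lost the call on leaving out single libraries, MVD in each of the 4 such fits (0.40 to 0.55) and ACAT2 in 3 of them (0.36 to 0.45).

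GGPS1, which turns farnesyl into geranylgeranyl diphosphate for protein prenylation, is the branch away from sterols. GGPS1 in wild-type cells was at 32.3 and 38.00 CPM in untreated cells, 34.4 and 29.95 CPM with IFNw, 27.8 and 21.01 CPM with H11, and 23.1 and 22.9 CPM with IFNL3. With optimized receptors GGPS1 was at 34.6 and 36.4 CPM in untreated cells, 33.6 and 27.05 CPM with IFNw, 35.9 and 30.7 CPM with H11, and 37.2 and 37.5 CPM with IFNL3. The wild-type H11 and IFNL3 libraries (21.0 to 27.8 CPM) lay below all others except replicate 2 of IFNw in optimized cells. GGPS1 fell with H11 (log2 fold change −0.53, SE 0.17, adjusted p = 0.0188) and IFNL3 (−0.61, SE 0.17, adjusted p = 0.00789) in wild-type cells. Without replicate 2 of untreated wild-type cells neither passed, and the H11 call was also lost without replicate 2 of H11 (range over the fits leaving out 1 library −0.74 to −0.34; for IFNL3 −0.73 to −0.49). It passed against untreated cells in no other group.

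The 11 genes from FDFT1 to DHCR7 run from farnesyl diphosphate to cholesterol. TM7SF2, a sterol reductase, lay in ranges that hardly overlapped. TM7SF2 in wild-type cells was at 28.7 and 25.5 CPM in untreated cells, 49.4 and 49.3 CPM with IFNw, 15.3 and 15.1 CPM with H11, and 14.3 and 13.3 CPM with IFNL3. With optimized receptors TM7SF2 was at 22.9 and 15.9 CPM in untreated cells, 38.6 and 47.6 CPM with IFNw, 38.1 and 41.1 CPM with H11, and 24.95 and 28.2 CPM with IFNL3. The 4 wild-type libraries with H11 or IFNL3 (15.3 CPM or less) were the lowest of the 16, and the 6 libraries of IFNw in both genotypes and of H11 in optimized cells (38.1 CPM or more) the highest. TM7SF2 rose with IFNw in wild-type cells (log2 fold change 0.87, SE 0.17, adjusted p = 0.000793), and fell there with H11 (−0.83, SE 0.17, adjusted p = 0.00122) and IFNL3 (−0.97, SE 0.18, adjusted p = 0.00035). In optimized cells it rose with IFNw (1.13, SE 0.17, adjusted p = 9.36e-05) and H11 (1.01, SE 0.18, adjusted p = 0.000286), while IFNL3 gave 0.43 (adjusted p = 0.115). Without replicate 1 of untreated optimized cells that last value was 0.74 and passed.

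HSD17B7, a keto-sterol reductase of the demethylation steps, fell into 3 ranges. HSD17B7 in wild-type cells was at 38.3 and 35.6 CPM in untreated cells, 65.8 and 62.3 CPM with IFNw, 25.9 and 23.2 CPM with H11, and 26.5 and 27.01 CPM with IFNL3. With optimized receptors HSD17B7 was at 37.1 and 35.9 CPM in untreated cells, 83.97 and 59.5 CPM with IFNw, 67.98 and 52.7 CPM with H11, and 57.04 and 54.3 CPM with IFNL3. The wild-type H11 and IFNL3 libraries (23.2 to 27.0 CPM), the untreated libraries (35.6 to 38.3 CPM) and the remaining 8 treated libraries (52.7 to 84.0 CPM) did not overlap. Its log2 fold change was 0.79 (SE 0.16, adjusted p = 0.00128) with IFNw, −0.59 (SE 0.17, adjusted p = 0.00991) with H11 and −0.47 (SE 0.17, adjusted p = 0.0334) with IFNL3 in wild-type cells. In optimized cells it was 0.97 (SE 0.16, adjusted p = 0.00022) with IFNw, 0.73 (SE 0.17, adjusted p = 0.00274) with H11 and 0.61 (SE 0.16, adjusted p = 0.0211) with IFNL3. The fall with IFNL3 did not pass without any 1 of the 4 libraries (−0.52 to −0.41) nor with the length offset (−0.43), and the fall with H11 did not pass without replicate 1 of untreated wild-type cells or replicate 2 of H11 (−0.67 to −0.51 over the 4 fits). The rise with IFNL3 in optimized cells lost the call without replicate 2 of untreated cells or either IFNL3 library (0.59 to 0.64).

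FDFT1, squalene synthase, commits farnesyl diphosphate to sterols. FDFT1 in wild-type cells was at 381 and 389.8 CPM in untreated cells, 656 and 610.2 CPM with IFNw, 267 and 247 CPM with H11, and 287 and 249.9 CPM with IFNL3. With optimized receptors FDFT1 was at 399 and 134 CPM in untreated cells, 815 and 646 CPM with IFNw, 812 and 648 CPM with H11, and 628 and 546 CPM with IFNL3. Replicate 2 of untreated optimized cells (134 CPM) was the lowest of all 16 libraries, and its replicate (399 CPM) lay near the untreated wild-type libraries. All 8 libraries of IFNw in both genotypes and of H11 and IFNL3 in optimized cells (546 CPM or more) lay above the rest. The log2 fold changes in optimized cells were 1.45 (SE 0.30, adjusted p = 0.00125) with IFNw, 1.45 (SE 0.30, adjusted p = 0.00127) with H11 and 1.13 (SE 0.30, adjusted p = 0.0183) with IFNL3. Without the outlying library they were 0.87, 0.87 and 0.56, all past the threshold, and without its replicate 2.45, 2.45 and 2.14. The IFNL3 value did not pass without either IFNL3 library. In wild-type cells none of the 3 ligands passed, with log2 fold changes of 0.72 (adjusted p = 0.0741) for IFNw, −0.59 (adjusted p = 0.126) for H11 and −0.52 (adjusted p = 0.172) for IFNL3.

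LSS, lanosterol synthase, rested on 2 to 24 reads a library. LSS in wild-type cells was at 2.60 and 1.60 CPM in untreated cells, 1.67 and 0.920 CPM with IFNw, 0.696 and 0.745 CPM with H11, and 0.447 and 0.179 CPM with IFNL3. With optimized receptors LSS was at 1.22 and 0.876 CPM in untreated cells, 3.08 and 0.499 CPM with IFNw, 1.41 and 1.56 CPM with H11, and 1.02 and 1.67 CPM with IFNL3. Most of its groups overlapped, and the wild-type IFNL3 libraries, with 5 and 2 reads, were the lowest. Its log2 fold change with IFNL3 in wild-type cells was −2.68 (SE 0.74, adjusted p = 0.00866), lost without replicate 1 of untreated cells or replicate 2 of IFNL3 (−3.44 to −2.19). At this depth the other differences of LSS from untreated cells were not detectable.

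Among the other 7 genes of the sterol arm, 5 rose with IFNw in wild-type cells: the methylsterol oxidase MSMO1, the sterol isomerase EBP, the decarboxylating dehydrogenase NSDHL, the final reductase DHCR7 and squalene epoxidase SQLE. MSMO1 went from 93.2 ± 9.31 CPM to 193 ± 4.74 CPM (mean ± SD, n = 2), a log2 fold change of 1.05 (SE 0.12, adjusted p = 5.58e-06). EBP had 1.03 (SE 0.19, adjusted p = 0.000614), NSDHL 0.91 (SE 0.13, adjusted p = 4.7e-05), DHCR7 0.86 (SE 0.14, adjusted p = 0.000164) and SQLE 0.85 (SE 0.17, adjusted p = 0.00103). All 5 also passed with IFNw in optimized cells (log2 fold changes from 0.61 for SQLE to 1.15 for MSMO1) and with H11 there (from 0.67 for DHCR7 to 1.09 for MSMO1), though EBP did not pass with the length offset (0.51 with IFNw and 0.46 with H11). With IFNL3 in optimized cells MSMO1 (1.26, SE 0.12, adjusted p = 1.62e-06), NSDHL (0.68, SE 0.13, adjusted p = 0.0023), SQLE (0.59, SE 0.17, adjusted p = 0.0319) and DHCR7 (0.45, SE 0.14, adjusted p = 0.041) passed, and EBP gave 0.44 (adjusted p = 0.145). The SQLE and DHCR7 calls were lost with the length offset (0.54 and 0.40) and without replicate 1 of untreated cells or either IFNL3 library. None of the 5 passed with H11 or IFNL3 in wild-type cells, where their log2 fold changes lay between −0.33 for EBP and 0.24 for NSDHL. The remaining 2 genes differed from these. CYP51A1, lanosterol demethylase, passed with IFNL3 in both genotypes (optimized 0.87, SE 0.16, adjusted p = 0.00192, wild-type 0.47, SE 0.16, adjusted p = 0.0288, the latter lost without any 1 of the 4 libraries at 0.42 to 0.51). With IFNw CYP51A1 gave 0.08 (adjusted p = 0.766) in wild-type and 0.29 (adjusted p = 0.188) in optimized cells. SC5D, a sterol desaturase (54 to 109 reads a library), fell in wild-type cells with H11 (−1.11, SE 0.26, adjusted p = 0.00291) and IFNL3 (−0.68, SE 0.25, adjusted p = 0.0417, lost with the length offset and in each fit leaving out 1 library, −0.88 to −0.50).

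**Figure D2:**
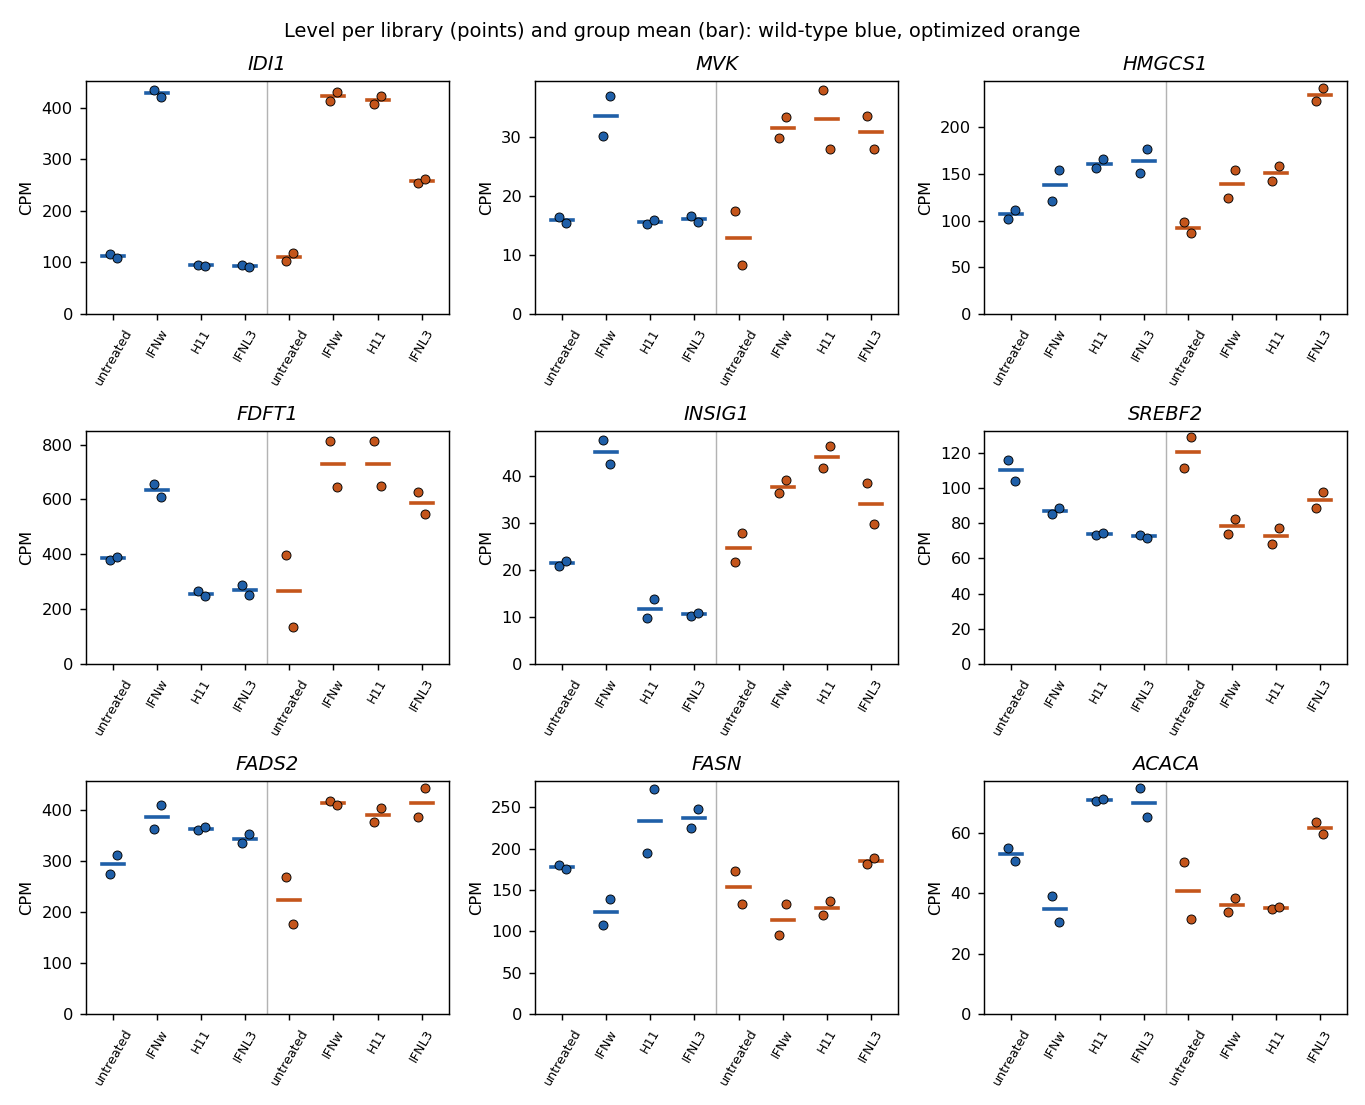
CPM of 9 of the genes in each library (points) with the group mean (bar) against treatment, in wild-type (blue) and optimized (orange) cells. IDI1 exceeds 400 CPM with IFNw in cells of either genotype and H11 in optimized cells, HMGCS1 is highest with IFNL3 in optimized cells, SREBF2 is highest in untreated cells, and FASN and ACACA are highest with H11 and IFNL3 in wild-type cells.

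Among the regulators, INSIG1, which retains the SREBP complex and is itself an SREBP target, separated into 3 ranges. INSIG1 in wild-type cells was at 20.9 and 21.9 CPM in untreated cells, 47.7 and 42.7 CPM with IFNw, 9.83 and 13.8 CPM with H11, and 10.3 and 10.9 CPM with IFNL3. With optimized receptors INSIG1 was at 21.8 and 27.8 CPM in untreated cells, 36.4 and 39.1 CPM with IFNw, 41.7 and 46.5 CPM with H11, and 38.5 and 29.8 CPM with IFNL3. The wild-type H11 and IFNL3 libraries (9.83 to 13.8 CPM), the 4 untreated libraries (20.9 to 27.8 CPM) and the other 8 treated libraries (29.8 to 47.7 CPM) did not overlap. In wild-type cells INSIG1 rose with IFNw (log2 fold change 1.08, SE 0.18, adjusted p = 0.000235) and fell with H11 (−0.86, SE 0.19, adjusted p = 0.0019) and IFNL3 (−1.01, SE 0.19, adjusted p = 0.000544). In optimized cells it rose with H11 (0.84, SE 0.18, adjusted p = 0.00197) and IFNw (0.62, SE 0.18, adjusted p = 0.0154), and IFNL3 gave 0.47 (adjusted p = 0.0972). The call with IFNw in optimized cells was lost without replicate 1 of untreated cells or replicate 2 of IFNw (0.44 to 0.79 over the 4 fits) and when the compared groups were fitted alone.

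SREBF2, which encodes SREBP2, was lower in every treated library. SREBF2 in wild-type cells was at 116 and 104 CPM in untreated cells, 85.3 and 88.7 CPM with IFNw, 73.5 and 74.3 CPM with H11, and 73.4 and 71.5 CPM with IFNL3. With optimized receptors SREBF2 was at 111 and 129 CPM in untreated cells, 73.7 and 82.5 CPM with IFNw, 68.1 and 77.2 CPM with H11, and 88.3 and 97.9 CPM with IFNL3. The 4 untreated libraries (104 CPM or more) lay above all 12 treated libraries (97.9 CPM or less). SREBF2 fell with H11 (−0.57, SE 0.13, adjusted p = 0.00177) and IFNL3 (−0.60, SE 0.13, adjusted p = 0.00123) in wild-type cells and with IFNw (−0.62, SE 0.13, adjusted p = 0.00126) and H11 (−0.72, SE 0.13, adjusted p = 0.000347) in optimized cells, on the log2 scale. IFNw in wild-type cells gave −0.34 (adjusted p = 0.0509) and IFNL3 in optimized cells −0.37 (adjusted p = 0.0653). The fall with IFNw in optimized cells did not pass when the 2 compared groups were fitted alone.

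SREBF1, which encodes SREBP1, had a narrower range. SREBF1 in wild-type cells was at 32.8 and 33.4 CPM in untreated cells, 30.6 and 26.5 CPM with IFNw, 23.8 and 22.3 CPM with H11, and 22.3 and 24.9 CPM with IFNL3. With optimized receptors SREBF1 was at 35.3 and 33.8 CPM in untreated cells, 34.4 and 26.9 CPM with IFNw, 26.9 and 30.4 CPM with H11, and 36.2 and 36.3 CPM with IFNL3. The wild-type H11 and IFNL3 libraries (24.95 CPM or less) lay below all others (26.5 CPM or more). It fell in wild-type cells with H11 (log2 fold change −0.52, SE 0.15, adjusted p = 0.0123) and IFNL3 (−0.49, SE 0.15, adjusted p = 0.0176) and passed against untreated cells nowhere else. The H11 call was lost without replicate 2 of untreated cells or of H11 (−0.57 to −0.47), and the IFNL3 call without either untreated library or replicate 1 of IFNL3 (−0.57 to −0.40).

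STARD4 carries cholesterol between membranes. STARD4 in wild-type cells was at 18.2 and 15.96 CPM in untreated cells, 26.03 and 20.6 CPM with IFNw, 19.04 and 19.6 CPM with H11, and 19.4 and 16.9 CPM with IFNL3. With optimized receptors STARD4 was at 14.9 and 13.7 CPM in untreated cells, 24.6 and 19.7 CPM with IFNw, 24.6 and 18.1 CPM with H11, and 28.4 and 23.8 CPM with IFNL3. The 2 untreated optimized libraries were the lowest of the 16, and the libraries of the other groups partly overlapped. STARD4 rose in optimized cells with IFNL3 (0.87, SE 0.20, adjusted p = 0.00787), IFNw (0.63, SE 0.20, adjusted p = 0.0223) and H11 (0.58, SE 0.20, adjusted p = 0.0355) on the log2 scale, and each of these calls was lost without at least 1 library (ranges 0.74 to 0.99, 0.50 to 0.81 and 0.37 to 0.82). In wild-type cells its log2 fold change was 0.45 (adjusted p = 0.0902) with IFNw. TMEM97, a sterol-binding membrane protein, lay between 46.4 and 68.6 CPM and passed in none of the 17 comparisons.

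In the fatty acid branch FASN, the synthase of palmitate, had its lowest group means with IFNw in cells of either genotype and H11 in optimized cells. FASN in wild-type cells was at 181 and 175 CPM in untreated cells, 107 and 139 CPM with IFNw, 195 and 273 CPM with H11, and 225 and 248 CPM with IFNL3. With optimized receptors FASN was at 174 and 133 CPM in untreated cells, 95.2 and 133 CPM with IFNw, 120.3 and 136 CPM with H11, and 181 and 189 CPM with IFNL3. The 4 wild-type libraries with H11 or IFNL3 (195 CPM or more) lay above the other 12 (189 CPM or less). Against untreated cells FASN passed only with IFNw in wild-type cells, where it fell (log2 fold change −0.53, SE 0.18, adjusted p = 0.035). That call was lost without either untreated library or replicate 1 of IFNw (−0.70 to −0.31) and with the length offset (−0.16). After ACACA, FASN has the longest transcript of the set (8565 bases).

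ACACA makes malonyl-CoA and has the longest transcript of the set (9961 bases). ACACA in wild-type cells was at 54.9 and 50.9 CPM in untreated cells, 39.3 and 30.3 CPM with IFNw, 70.5 and 71.2 CPM with H11, and 74.9 and 65.2 CPM with IFNL3. With optimized receptors ACACA was at 50.3 and 31.3 CPM in untreated cells, 33.9 and 38.4 CPM with IFNw, 34.8 and 35.4 CPM with H11, and 63.7 and 59.6 CPM with IFNL3. The 4 wild-type libraries with H11 or IFNL3 (65.2 CPM or more) and the 2 optimized libraries with IFNL3 (59.6 and 63.7 CPM) lay above all others. ACACA fell with IFNw in wild-type cells (log2 fold change −0.60, SE 0.18, adjusted p = 0.0179), which with the length offset was −0.20 and did not pass, nor did it without replicate 1 of untreated cells or replicate 2 of IFNw (−0.75 to −0.40). It rose with IFNL3 in optimized cells (0.58, SE 0.18, adjusted p = 0.042), which without replicate 2 of untreated cells was 0.29 and did not pass, nor did it without either IFNL3 library (0.29 to 0.98 over the 4 fits). With H11 and IFNL3 in wild-type cells its values were 0.42 (adjusted p = 0.0663) and 0.41 (adjusted p = 0.0769).

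FADS2, the first desaturase of polyunsaturated fatty acid synthesis, was higher in treated cells. FADS2 in wild-type cells was at 275 and 312 CPM in untreated cells, 363 and 410.4 CPM with IFNw, 360.0 and 367 CPM with H11, and 335 and 352 CPM with IFNL3. With optimized receptors FADS2 was at 269 and 176 CPM in untreated cells, 418 and 409.8 CPM with IFNw, 377 and 404 CPM with H11, and 386 and 443 CPM with IFNL3. The 4 untreated libraries (312 CPM or less) lay below all 12 treated ones (335 CPM or more). FADS2 rose in optimized cells with IFNw (log2 fold change 0.89, SE 0.16, adjusted p = 0.000278), H11 (0.81, SE 0.15, adjusted p = 0.000677) and IFNL3 (0.89, SE 0.15, adjusted p = 0.00101), and without replicate 2 of untreated cells these were 0.62, 0.54 and 0.62, all past the threshold. In wild-type cells IFNw gave 0.40 (adjusted p = 0.058), H11 0.31 (adjusted p = 0.122) and IFNL3 0.23 (adjusted p = 0.255).

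FADS1, the next desaturase, lies beside FADS2 in the genome. FADS1 in wild-type cells was at 59.04 and 72.9 CPM in untreated cells, 71.4 and 71.2 CPM with IFNw, 54.96 and 56.01 CPM with H11, and 58.6 and 57.3 CPM with IFNL3. With optimized receptors FADS1 was at 55.8 and 80.4 CPM in untreated cells, 92.7 and 84.3 CPM with IFNw, 86.1 and 82.9 CPM with H11, and 87.5 and 99.8 CPM with IFNL3. The 6 treated optimized libraries (82.9 CPM or more) lay above the other 10 (80.4 CPM or less). FADS1 passed against untreated cells in none of the 6 comparisons, with log2 fold changes in optimized cells of 0.39 (adjusted p = 0.0685) with IFNw, 0.32 (adjusted p = 0.133) with H11 and 0.47 (adjusted p = 0.0572) with IFNL3. Without replicate 2 of untreated optimized cells these were 0.66, 0.60 and 0.75, and all 3 passed. Of the other 3 genes, ELOVL6, which elongates palmitate, rose with IFNw in wild-type cells (0.41, SE 0.14, adjusted p = 0.0358) and in optimized cells with IFNw (0.58, SE 0.15, adjusted p = 0.00517), H11 (0.44, SE 0.15, adjusted p = 0.0272) and IFNL3 (0.50, SE 0.14, adjusted p = 0.0313), each call lost under at least 1 alternative. SCD, the stearoyl-CoA desaturase, rose with IFNw in wild-type cells (0.41, SE 0.13, adjusted p = 0.027, lost without either untreated library or replicate 2 of IFNw, 0.35 to 0.50). ACLY, which supplies cytosolic acetyl-CoA, passed in no comparison with untreated cells. Its log2 fold change with IFNw in optimized cells was −0.03, with 0.37 without replicate 1 and −0.33 without replicate 2 of untreated cells, both past the threshold in opposite directions.

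LPIN1, a phosphatidate phosphatase that makes diacylglycerol, is the glycerolipid gene of the set. LPIN1 in wild-type cells was at 16.4 and 17.6 CPM in untreated cells, 12.9 and 12.5 CPM with IFNw, 21.1 and 21.9 CPM with H11, and 19.1 and 20.9 CPM with IFNL3. With optimized receptors LPIN1 was at 15.2 and 22.1 CPM in untreated cells, 12.9 and 17.7 CPM with IFNw, 13.6 and 12.5 CPM with H11, and 18.2 and 16.2 CPM with IFNL3. Its wild-type IFNw libraries lay below and its wild-type H11 and IFNL3 libraries above the untreated wild-type ones. None of the 6 differences from untreated cells passed, and their log2 fold changes lay between −0.49 (H11, optimized) and 0.34 (H11, wild-type).

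Counted over the whole set, IFNw in wild-type cells raised 15 of the 32 genes and lowered 2 (53.1% of the set), while 31.4% of all tested genes passed (16.6% up and 14.8% down). In the sterol branch 12 of 18 rose and none fell, with a median log2 fold change of 0.76, against −0.05 over all tested genes. In the fatty acid branch SCD and ELOVL6 rose and FASN and ACACA fell, with a median of 0.11. INSIG1 was the 1 riser among the regulators. With the length offset 15 rose and none fell, while 3078 of all genes passed. The medians were then 0.62 in the sterol and 0.23 in the fatty acid branch. Leaving out replicate 1 of untreated cells left 11 rising and none falling.

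H11 in wild-type cells lowered 8 of the 32 genes (FDPS, TM7SF2, HSD17B7, SC5D, INSIG1, SREBF1, SREBF2 and GGPS1) and raised HMGCS1, while 38.8% of all genes passed (18.2% up and 20.6% down), so the share of the set that passed (28.1%) was below that of all genes. The median log2 fold change was −0.22 in the sterol and 0.14 in the fatty acid branch, against −0.02 over all genes. None of the 7 fatty acid genes passed. IFNL3 in wild-type cells lowered 9 (FDPS, LSS, TM7SF2, HSD17B7, SC5D, INSIG1, SREBF1, SREBF2 and GGPS1) and raised HMGCS1 and CYP51A1, while 39.7% of all genes passed (18.7% up and 21.1% down), against 34.4% of the set. Its medians were −0.27 and 0.11, against −0.01. With the length offset the splits were 2 up and 7 down for H11, and 3 up and 6 down for IFNL3. In those fits 4391 and 4529 of all genes passed, and the sterol branch medians were −0.06 and −0.12. Leaving out any 1 of the 4 libraries left 5 or 6 of the 11 IFNL3 calls, and leaving out replicate 2 of untreated cells left 6 of the 9 H11 calls.

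In optimized cells IFNw raised 16 genes and lowered SREBF2, while 33.4% of all genes passed (17.5% up and 15.9% down). H11 likewise raised 16 and lowered SREBF2, while 32.4% of all genes passed (17.2% up and 15.2% down). For both ligands 12 of 18 sterol branch genes rose and none fell (median log2 fold change 0.75 for each, against −0.04 and −0.03 over all genes), and 2 of 7 fatty acid genes, FADS2 and ELOVL6, rose (medians 0.05 and −0.01). INSIG1 and STARD4 rose with each. With the length offset the sterol branch medians were 0.54 and 0.61, and the fatty acid medians 0.19 and 0.12. Without replicate 2 of untreated cells 17 rose and 4 fell with IFNw, and 16 rose and 3 fell with H11. Without that library IDI1 gave 2.04 with IFNw and 2.01 with H11, FDPS 0.81 and 0.86, TM7SF2 0.91 and 0.79, and SREBF2 −0.51 and −0.62, all still past the threshold. MVD and FADS1 then also rose and ACACA and ACLY also fell with both ligands, FASN also fell with IFNw, and STARD4 with both and ELOVL6 with H11 (0.28) no longer passed.

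IFNL3 in optimized cells raised 14 genes and lowered none, while 13.3% of all genes passed (7.26% up and 6.05% down). The risers were 10 of 18 sterol branch genes (median log2 fold change 0.52, against −0.01 over all genes), 3 of 7 fatty acid genes (FADS2, ACACA and ELOVL6, median 0.47) and STARD4. With the length offset 12 rose, while 1651 of all genes passed, and the medians were 0.47 and 0.44. With the 2 compared groups fitted alone 3 remained past the threshold, where 225 of all genes passed, against 1690 in the main fit. Fewer of the 14 also passed without either IFNL3 library. Without replicate 2 of untreated cells 13 rose and none fell, with EBP (0.78) and FADS1 (0.75) gained and HSD17B7, ACACA and ELOVL6 (0.34) lost. All 6 comparisons of a ligand with untreated cells share the untreated libraries of their genotype, so their values are not independent of one another.

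**Figure D3:**
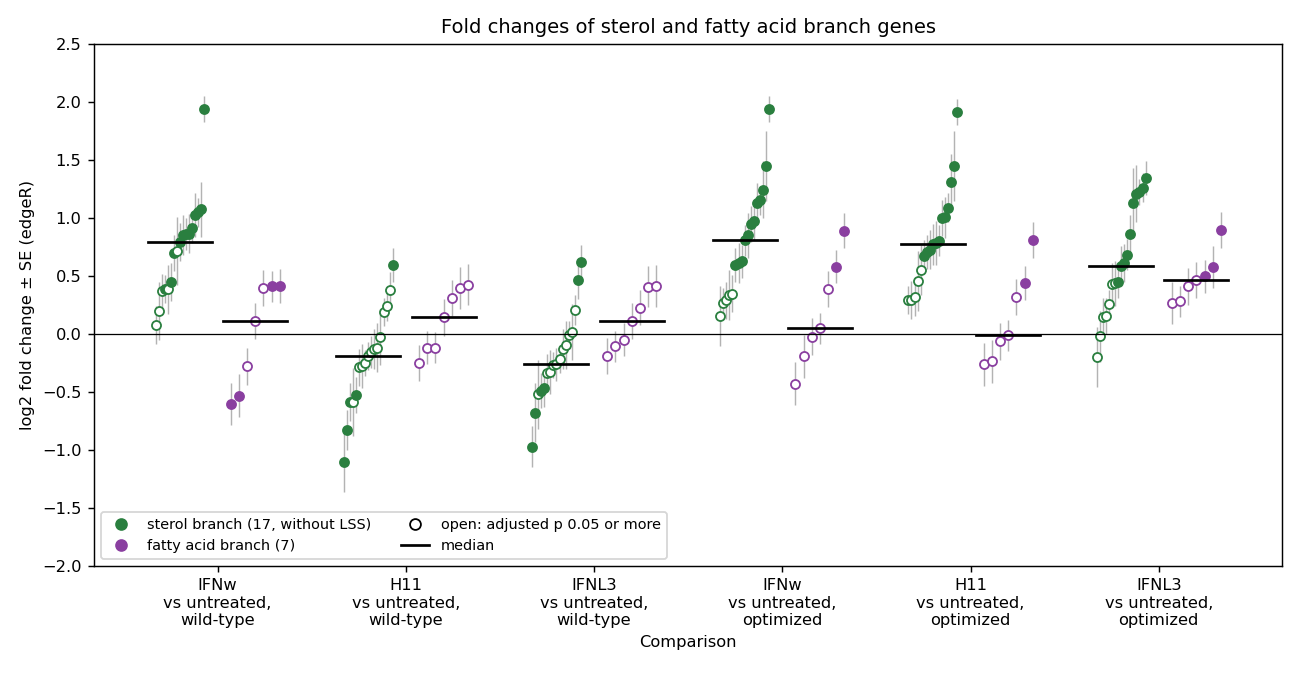
Log2 fold change against untreated cells (edgeR, bars ± SE) for 17 sterol branch genes (green, LSS left out for its few reads) and 7 fatty acid genes (purple) in the 6 comparisons of a ligand with untreated cells. Filled points passed at an adjusted p of 0.05, and the black line is the median of the points drawn. The green points lie mostly above the purple ones with IFNw in both genotypes and H11 in optimized cells, mostly below them with H11 and IFNL3 in wild-type cells, and among them with IFNL3 in optimized cells.

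To set the branches side by side in each library, the mean of log2(CPM + 0.5) relative to each gene's mean over the 16 libraries was taken over the 18 sterol and the 7 fatty acid genes. The sterol mean includes LSS with its 2 to 24 reads a library, and no mean without LSS was computed. The sterol minus fatty acid difference was −0.10 and −0.24 in untreated and 0.49 and 0.53 in IFNw-treated wild-type cells. It was −0.50 and −0.57 with H11 and −0.59 and −0.55 with IFNL3 there. Untreated optimized libraries had −0.25 and −0.05, those with IFNw 0.51 and 0.37, those with H11 0.51 and 0.50, and those with IFNL3 −0.0018 and −0.06. The IFNw libraries of both genotypes and the H11 libraries of optimized cells thus had the highest values, and the wild-type H11 and IFNL3 libraries the lowest, with no overlap between them or with the other libraries on this scale. With the length trend removed the group means were 0.23 (IFNw), −0.22 (H11) and −0.25 (IFNL3) in wild-type cells and 0.17 (IFNw), 0.25 (H11) and −0.01 (IFNL3) in optimized cells, against −0.09 and −0.08 in untreated wild-type and optimized cells. The IFNw libraries and the H11 libraries of optimized cells (0.09 to 0.27) then still lay above the other 10, but the wild-type H11 and IFNL3 libraries (−0.27 to −0.17) overlapped the untreated ones (−0.18 to 0.02). The fatty acid branch alone had group means of 0.28 with IFNL3 in optimized cells and from −0.22 to 0.07 in the other 7 groups. With the length trend removed they were 0.10 (IFNw), −0.13 (H11) and −0.12 (IFNL3) in wild-type cells. In optimized cells they were 0.14 (IFNw), 0.10 (H11) and 0.26 (IFNL3), and in untreated wild-type and optimized cells −0.11 and −0.24. The sign of this mean thus changed with the offset in every treated group except IFNL3 in optimized cells.

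Untreated optimized and wild-type cells differed in none of the 32 genes, and in 0% of all 12704 tested genes (705 at an unadjusted p below 0.05, 5 of them in the set, with 0 called by DESeq2). The 95% interval of the log2 difference lay within ±1 for 30 of the 32 genes. Without replicate 1 of untreated optimized cells 7 passed, 6 lower in optimized cells (FDFT1 −1.53, TM7SF2 −0.77, MVK −0.95, FADS2 −0.74, ACACA −0.76 and ACLY −0.65 on the log2 scale) and SCD higher (0.46). Those values rest on the outlying library alone, and without that library none passed.

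With IFNw none of the 32 genes differed between the genotypes, and 0% of all genes did (439 at an unadjusted p below 0.05, none of them in the set, with 0 called by DESeq2). The 95% interval lay within ±1 for 31 of the 32. For IDI1 the optimized minus wild-type log2 difference was −0.02 (95% interval −0.25 to 0.21), for INSIG1 −0.26 (−0.63 to 0.12) and for FASN −0.11 (−0.50 to 0.28). The difference between the genotypes' responses to IFNw likewise passed in none of the 32 and 0% of all genes (633 at an unadjusted p below 0.05, 1 in the set, with 0 called by DESeq2). FDFT1, FADS2, ACACA and ACLY passed only without replicate 1 of untreated optimized cells, a fit in which that group rests on the outlying library alone.

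With H11 the genotypes differed. Of the 32 genes 18 were higher and 4 lower in optimized than in wild-type cells with H11 (68.8% of the set), where 51.7% of all genes passed (25.6% higher and 26.1% lower). In the sterol branch 13 of 18 were higher and none lower (median log2 difference 1.05, against −0.05 over all genes). IDI1 was 4.42-fold higher (log2 difference 2.14, SE 0.11, adjusted p = 2.04e-10), INSIG1 3.72-fold (1.90, SE 0.19, adjusted p = 2.81e-07), FDFT1 2.84-fold (1.51, SE 0.30, adjusted p = 0.000432), SC5D 2.65-fold (1.40, SE 0.26, adjusted p = 0.000248) and TM7SF2 2.60-fold (1.38, SE 0.17, adjusted p = 4.4e-06). In the fatty acid branch SCD (0.43), FADS1 (0.61) and ELOVL6 (0.39) were higher and FASN (−0.87), ACACA (−1.01) and ACLY (−0.47) lower, as was LPIN1 (−0.72). Under the length offset 17 were higher and none lower, while 5637 of all genes passed. The 4 lower genes then gave −0.30, −0.38, −0.35 and −0.41.

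With IFNL3 21 of the 32 genes were higher in optimized cells and none lower (65.6% of the set), where 33.2% of all genes passed (18.1% higher and 15.1% lower). These were 14 of 18 sterol branch genes (median log2 difference 0.80, against −0.01 over all genes), SCD and FADS1 of the fatty acid branch, INSIG1, SREBF1, SREBF2 and STARD4 of the 5 regulators and carriers, and GGPS1. INSIG1 was 3.22-fold higher (1.69, SE 0.19, adjusted p = 4.47e-06), IDI1 2.78-fold (1.48, SE 0.11, adjusted p = 6.07e-08) and MSMO1 2.72-fold (1.44, SE 0.12, adjusted p = 2.4e-07). After length correction, 20 were higher and PMVK (−0.60) was lower, while 3440 of all genes passed. Without replicate 1 of wild-type IFNL3 13 passed, and without replicate 1 of optimized IFNL3 14.

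The difference between the genotypes' responses was tested directly. For H11 it passed in 16 genes, 15 with the larger log2 fold change in optimized cells, where 36.9% of all genes passed (19.5% and 17.4% in the 2 directions). These included 13 of 18 sterol branch genes, led by IDI1 (2.16, SE 0.16, adjusted p = 3.33e-08), FDFT1 (2.03, SE 0.42, adjusted p = 0.00108, and 1.46 without the outlying untreated library) and TM7SF2 (1.84, SE 0.25, adjusted p = 2.16e-05). LPIN1 was the 1 gene with the smaller value (−0.83, SE 0.28, adjusted p = 0.0269), lost with the length offset (−0.57) and without replicate 2 of untreated optimized cells (−0.56). For IFNL3 it passed in 12 genes, all with the larger value in optimized cells, where 18.4% of all genes passed (11.1% and 7.31%). They were 9 of 18 sterol branch genes, INSIG1 (1.49, SE 0.27, adjusted p = 0.00101), FADS1 and FADS2. Leaving out replicate 1 of wild-type IFNL3 left 6. Leaving out replicate 1 of optimized IFNL3, replicate 2 of untreated wild-type cells or replicate 2 of wild-type IFNL3 left 7. Without replicate 2 of untreated optimized cells the response to H11 passed upward in 15 genes and downward in 3, and that to IFNL3 in 14 and in none. For H11 this gained FADS1 upward and FASN, ACACA and ACLY downward, and lost ELOVL6 and LPIN1. For IFNL3 it gained NSDHL, EBP, MVD and SCD and lost MVK and FADS2.

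Ligands were also compared with each other within a genotype. In wild-type cells 19 of the 32 genes were higher with IFNw than with IFNL3 and 4 lower (71.9% of the set), where 53.1% of all genes passed (25.9% and 27.2%). INSIG1 was 4.25-fold (2.09, SE 0.19, adjusted p = 9.92e-08), IDI1 4.62-fold (2.21, SE 0.11, adjusted p = 1.45e-10) and TM7SF2 3.57-fold (1.84, SE 0.18, adjusted p = 1.6e-07) higher with IFNw. FASN (−0.94), ACACA (−1.01), ACLY (−0.39) and LPIN1 (−0.66) were lower. Once length was offset, 21 were higher and CYP51A1 (−0.45) was lower, while 5701 of all genes passed. None of the 4 then passed (−0.34, −0.34, −0.27 and −0.32). H11 and IFNL3 in wild-type cells differed in none of the 32 genes and 0% of all genes (158 at an unadjusted p below 0.05, none in the set, with 0 called by DESeq2). The 95% interval lay within ±1 for 31 of the 32, with IDI1 at 0.02 (−0.21 to 0.25) and HMGCS1 at −0.02 (−0.33 to 0.28).

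In optimized cells 7 of the 32 genes differed between IFNw and IFNL3 (21.9% of the set), a share near that of all genes, of which 19.1% passed (11.5% higher and 7.58% lower with IFNw). IDI1 (0.71, SE 0.11, adjusted p = 0.000294), FDPS (0.79, SE 0.15, adjusted p = 0.00199) and TM7SF2 (0.70, SE 0.17, adjusted p = 0.008) were higher with IFNw, and HMGCS1 (−0.75, SE 0.15, adjusted p = 0.00184), CYP51A1 (−0.58, SE 0.16, adjusted p = 0.0177), FASN (−0.70, SE 0.18, adjusted p = 0.0133) and ACACA (−0.77, SE 0.18, adjusted p = 0.00688) higher with IFNL3. H11 against IFNL3 likewise gave 7 (21.9% of the set), again near the share of all genes, of which 17.6% passed (10.7% and 6.86%): IDI1 (0.69), FDPS (0.84) and TM7SF2 (0.57) higher, and HMGCS1 (−0.64), CYP51A1 (−0.57), ACACA (−0.81) and ACLY (−0.47) lower with H11. In the length-offset fit each comparison kept 4 genes past the threshold, 2 in each direction, while 1291 (IFNw) and 1185 (H11) of all genes passed. Without replicate 1 of IFNL3 each gave 3, as did the H11 comparison without replicate 2 of IFNL3. The calls of IDI1 and FDPS held under every alternative run in both comparisons, while CYP51A1 passed in neither without replicate 1 or replicate 2 of IFNL3. The HMGCS1 call against H11 was lost without replicate 1 of H11 or replicate 2 of IFNL3.

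**Figure D4:**
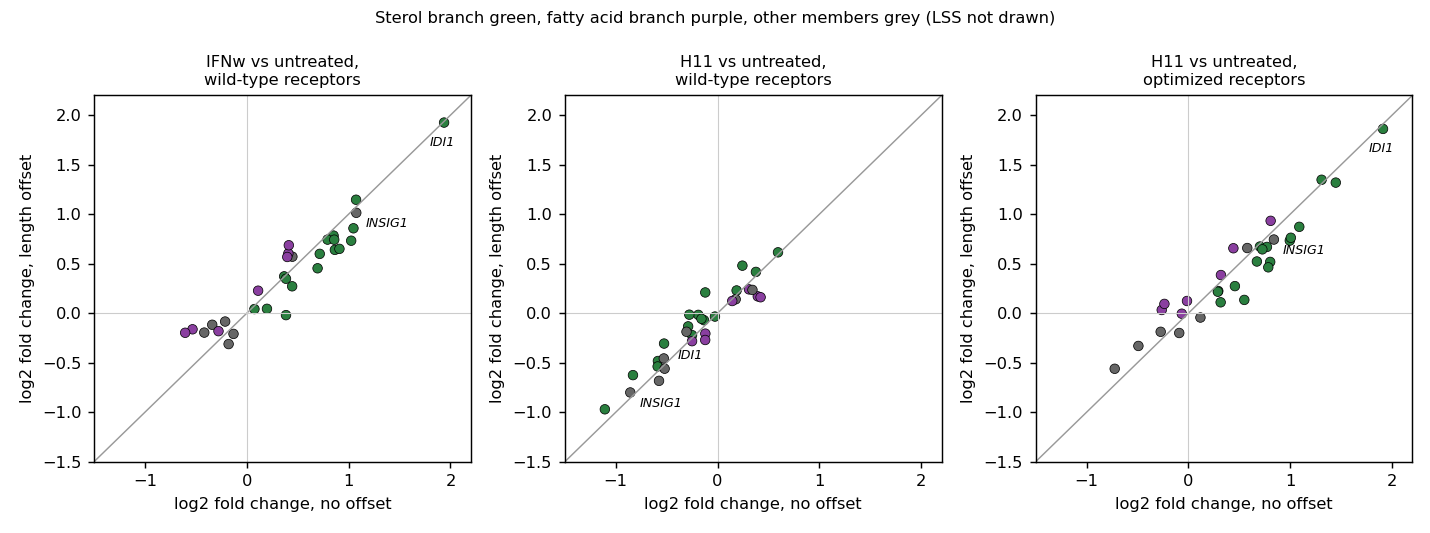
Log2 fold change with the length offset (vertical) against that without it (horizontal) for 31 of the genes (LSS left out), in 3 comparisons with untreated cells, with sterol branch genes in green, fatty acid genes in purple and others in grey. The diagonal marks equal values. IDI1 stays near 1.9 with IFNw in wild-type cells and H11 in optimized cells, while purple points move towards or above 0 there.

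Over the 17 comparisons, 30 of the 32 genes passed at least once, with 193 calls in all. The share of all tested genes that passed at least once was not computed. Up to 53.1% of all genes passed in a single comparison, so the 30 are not read as a trait of the set. IDI1 passed in 11 comparisons and MSMO1 in 9, and each of those calls held under every alternative run for it. INSIG1 held 9 of 10, TM7SF2 10 of 12, FDPS 8 of 10 and HSD17B7 8 of 11. FASN (4 calls), ACACA (6), ACLY (3), LPIN1 (3), SREBF1 (3), STARD4 (4), CYP51A1 (5), ELOVL6 (7), ACAT2 (3) and LSS (2) held none under all alternatives. Fitted with the length offset, FASN, ACLY and LPIN1 kept no call and ACACA 1 of 6, while ELOVL6 kept 7 of 7, CYP51A1 5 of 5 and STARD4 4 of 4.

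Genes that act around these pathways were taken from 3 lists. Of 19 tested genes of SREBP control and sterol trafficking, IFNw in wild-type cells raised 1 and lowered 3, H11 raised 2 and lowered 3, and IFNL3 raised 2 and lowered 4. In optimized cells the counts were 1 and 3 with IFNw, 1 and 3 with H11, and 0 and 1 with IFNL3. The share of the list that passed was below that of all genes in each of the 6 comparisons: 21.1% against 31.4% (IFNw), 26.3% against 38.8% (H11) and 31.6% against 39.7% (IFNL3) in wild-type cells, and 21.1% against 33.4%, 21.1% against 32.4% and 5.26% against 13.3% in optimized cells. MBTPS2, the protease that makes the second cut in SREBP, fell with IFNw in wild-type (−0.50, SE 0.14, adjusted p = 0.0103) and optimized cells (−0.58, SE 0.14, adjusted p = 0.0042), with H11 in both (−0.52 and −0.52) and with IFNL3 in optimized cells (−0.45). Outside the naming rule, and looked up after the other values were seen, its fall with IFNL3 in wild-type cells also passed (−0.66, adjusted p = 0.0011). ABCA1, which exports cholesterol, fell with H11 (−1.83, SE 0.50, adjusted p = 0.00842) and IFNL3 (−1.70, SE 0.50, adjusted p = 0.0123) in wild-type cells at 8.10 CPM or less. MYLIP, a ubiquitin ligase for lipoprotein receptors, rose there with H11 (1.17, SE 0.37, adjusted p = 0.0178) and IFNL3 (1.35, SE 0.36, adjusted p = 0.00745), at 6.89 CPM or less. Of 11 other isoprenoid genes, IFNw raised 1 and lowered 0 in wild-type and raised 3 and lowered 1 in optimized cells. H11 raised 1 and lowered 1 in each genotype, and IFNL3 raised 2 and lowered 1 in wild-type and raised 1 and lowered 1 in optimized cells. The isoprenoid share was 9.09% to 27.3% in wild-type cells, below that of all genes with each ligand, and in optimized cells 36.4% with IFNw, 18.2% with H11 and 18.2% with IFNL3, of which the second was below. Farnesyltransferase subunit FNTA fell in wild-type cells with H11 (−1.04, SE 0.13, adjusted p = 1.28e-05) and IFNL3 (−0.98, SE 0.13, adjusted p = 2.33e-05). Of 19 other fatty acid and glycerolipid genes, IFNw raised 0 and lowered 5 in wild-type and raised 2 and lowered 4 in optimized cells. H11 raised 2 and lowered 4 in wild-type and raised 3 and lowered 4 in optimized cells, and IFNL3 raised 3 and lowered 4 in wild-type and raised 1 and lowered 1 in optimized cells. The share of that list was 36.8% with H11 in optimized cells, where 32.4% of all genes passed, and below that of all genes in the other 5 comparisons. ACACB, the mitochondrial carboxylase, fell with IFNw in wild-type cells (−0.9996), with H11 in optimized cells (−0.997) and with IFNL3 in optimized cells (−1.41, SE 0.30, adjusted p = 0.00529). With the length offset the IFNw and H11 values of ACACB were −0.61 and −0.69 and did not pass, while the IFNL3 value was −1.40 and passed. DGAT2, which makes triglyceride, fell with H11 (−2.91, SE 0.50, adjusted p = 0.000233) and IFNL3 (−3.12, SE 0.52, adjusted p = 0.000172) in wild-type cells, at 4.23 CPM or less in every library. All values in these sentences are log2 fold changes against untreated cells.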

How the data were processed

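Counts of reads per target, 1 target per gene, were deposited by the authors for 16 libraries sequenced on an Ion Torrent instrument. The submitters' processing notes name hg19; the sources used here name no aligner or counter, and give no position for the amplified targets. Nor is it stated whether counting used strand or split reads among copies, which bears on ACAT2 (overlapped by TCP1 on the other strand) and on FDPS and HSD17B7 (pseudogene copies). Samples were grouped by the labels. Rows for 10 spike-ins were left out.

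The counts were tested with edgeR 4.0.16 (quasi-likelihood, R 4.3.3) in 1 model of all 16 libraries with a coefficient per group, after filterByExpr and TMM scaling. P-values of each of the 17 comparisons were adjusted by Benjamini and Hochberg over the 12704 genes tested, with a threshold of 0.05, and every adjusted p printed is from this fit. The common dispersion was 0.0176, a biological coefficient of variation of 13.3% between libraries of a group. Library totals of 5331203 to 9822088 reads give LSS too few reads (2 to 24) for a close estimate. The length offset is a natural spline with 5 degrees of freedom on the log2 longest GENCODE transcript, fitted per library over the 12350 tested genes with a length. Whether that length matches the counted target is not known. Other alternatives were DESeq2 1.42.0, its size factors in edgeR, testing without the low-count filter, a replicate block, the compared groups alone, the fit without the wild-type H11 and IFNL3 libraries, and leaving out each library in turn. A group left with 1 library takes its spread from the other groups. The scripts were tested on simulated counts.

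Values per library are given for up to 4 genes of each role with the widest range of group means on the log2 CPM scale, and for SREBF1, SREBF2 and INSIG1, and the other genes are given by fold change, range and counts. Genes outside the set were named among the 3 largest called changes in each direction, comparison and list. The genes, the related lists and this rule were chosen with earlier results of these data known. Upstream sequences are from RefSeq (GRCh38.p14).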

Additional observations from a re-analysis of the deposited data

Results flagged for a closer look

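The test of whether the 2 genotypes responded differently passed for 16 genes with H11. The optimized minus wild-type difference in log2 fold change was 2.16 for IDI1, 1.52 for FDPS, 1.33 for MVK and 0.61 for MVD in the mevalonate arm. In the sterol arm it was 2.03 for FDFT1, 1.84 for TM7SF2, 1.56 for SC5D, 1.31 for HSD17B7, 1.28 for MSMO1, 1.06 for EBP, 0.90 for SQLE, 0.83 for DHCR7 and 0.56 for NSDHL. INSIG1 had 1.70, ELOVL6 0.56 and LPIN1 −0.83. As given above, ELOVL6 and LPIN1 did not pass without replicate 2 of untreated optimized cells, and FDFT1 was outlying in that library.

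With IFNL3 the same test passed for 12 genes. The difference was 1.49 for IDI1, 1.19 for MVK and 0.73 for HMGCS1 in the mevalonate arm, and 1.65 for FDFT1, 1.48 for MSMO1, 1.40 for TM7SF2, 1.08 for HSD17B7, 0.72 for SQLE and 0.71 for DHCR7 in the sterol arm. INSIG1 had 1.49, FADS1 0.66 and FADS2 0.66. The adjusted p was 0.0489 for SQLE, 0.0475 for FADS1 and 0.0414 for FADS2. As given above, MVK and FADS2 did not pass without replicate 2 of untreated optimized cells, and FDFT1 was outlying in that library. The H11 and IFNL3 differences share the untreated libraries. The length trend of the libraries differs between the genotypes in the same groups (0.37 to 0.41 in wild-type and −0.41 to −0.40 in optimized cells with H11). With the length offset 14 positive differences passed for H11 and 10 for IFNL3, where 3732 and 1745 of all genes passed in either direction. Beyond that offset the part of the length trend in the result was not tested.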

How the results depend on the processing

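Of 193 calls over the 32 genes and 17 comparisons, 104 held under every alternative run for them. Over 2120 values of called genes under the alternatives, 1817 kept direction and call, 303 kept direction but missed the threshold, and none changed direction. With the length offset 153 calls held and 40 did not. Fitting the compared groups alone changed the number of called genes to 15 for H11 in wild-type cells, 10 for IFNw and 3 for IFNL3 in optimized cells, and 11 for H11 against IFNL3 there. All genes past the threshold numbered 5427, 2052, 225 and 3007 in these fits, against 4932, 4247, 1690 and 2232 in the main fit. The replicate block gave 14 for H11 in wild-type cells and 13 for H11 against IFNL3 in optimized cells, where 5658 and 2979 of all genes passed. The labels do not say that replicate numbers pair libraries. Over 28 pairs of groups the replicate 1 minus 2 differences correlated at 0.0896 to 0.233 across genes. The length offset gave 4 each for IFNw and H11 against IFNL3 in optimized cells, and sterol minus fatty acid means of 0.23 (IFNw), −0.22 (H11) and −0.25 (IFNL3) in wild-type and 0.17 (IFNw) and 0.25 (H11) in optimized cells. Leaving out 1 library gave 11 to 15 genes for IFNw and 5 to 6 for IFNL3 in wild-type cells, 7 to 15 for IFNL3 in optimized cells, 0 to 7 between untreated genotypes, 13 to 16 between the genotypes with IFNL3, 0 to 4 for the response difference to IFNw, 6 to 14 for that to IFNL3, and 3 to 6 (IFNw) and 3 to 4 (H11) against IFNL3 in optimized cells. The number of all tested genes that passed also changed under these alternatives, including between untreated genotypes. A changed count of the 32 is therefore not read as a result about the set alone. With 2 libraries a group, missing the threshold does not show that values did not differ.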

Other observations

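EBP was higher in replicate 2 than in replicate 1 in all 8 groups. How many other genes share such an order was not counted. Replicate differences correlated across genes in all 28 pairs of groups (0.0896 to 0.233), so the order is not read as particular to EBP. EBP in wild-type cells was at 229 and 281 CPM in untreated cells, 450.3 and 587 CPM with IFNw, 187 and 233 CPM with H11, and 179 and 227 CPM with IFNL3. With optimized receptors EBP was at 233 and 358 CPM in untreated cells, 493 and 569.6 CPM with IFNw, 481 and 534 CPM with H11, and 373 and 424 CPM with IFNL3. Its log2 fold changes compare group means, and the replicates of a group have no stated order or pairing.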
